A study of Mus musculus with 10 samples.

Results

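The 10 nicotinic acetylcholine receptor subunit genes were followed in the hippocampus of Dp1Yey mice. They were Chrna1, Chrna2, Chrna3, Chrna4, Chrna5, Chrna7, Chrnb1, Chrnb2, Chrnb4 and Chrnd, taken by gene symbol wherever an array probe set was annotated to that symbol alone. Each of the 10 had 1 such probe set, and together they were 10 of the 19938 genes measured. Dp1Yey mice, a model of Down syndrome, carry a duplicated segment of chromosome 16 (Mmu16) that runs from Lipi to Zbtb21, so that genes inside it are present in 3 copies. All 10 subunit genes lay outside that segment and were present in 2 copies in both groups. The animals were 5 male Dp1Yey mice and 5 male control littermates, all 16 weeks old and on a C57BL/6 background, whose substrain is C57BL/6N in the labels and C57BL/6J in the study's methods. Each array held RNA of the whole hippocampus, left and right, of 1 mouse, so fewer cells of a type and less RNA per cell could not be told apart.

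Nicotinic receptors are pentameric ion channels that open when acetylcholine binds. The muscle type of the neuromuscular endplate is built from the alpha 1, beta 1 and delta subunits with gamma before birth or epsilon in the adult, encoded by Chrna1, Chrnb1, Chrnd, Chrng and Chrne. Neuronal receptors are assembled from other subunits. The alpha 4 and beta 2 subunits form the main heteromeric receptor of the brain, alpha 5 is an accessory subunit of such receptors, alpha 3 and beta 4 are the pair of autonomic ganglia and the medial habenula, and alpha 7 forms homomeric channels that are known in hippocampal neurons and interneurons. The question was at what level the subunits stood and whether a difference between the genotypes was limited to the muscle-type subunit Chrna1.

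The start of Chrna1 is shown first because the muscle-type genes are known for E-boxes, the CANNTG motif that myogenic basic helix-loop-helix factors bind in their promoters. The 3 sequences are the 250 bases before the annotated start of Chrna1 (chr2:73580339-73580588, minus strand), of the embryonic muscle subunit Chrng (chr1:87205561-87205810, plus strand) and of the neuronal subunit Chrnb2 (chr3:89764633-89764882, minus strand). They come from RefSeq on GRCm38.p6, run 5′ to 3′ on the strand of the gene, and have each CANNTG in capitals.
Chrna1: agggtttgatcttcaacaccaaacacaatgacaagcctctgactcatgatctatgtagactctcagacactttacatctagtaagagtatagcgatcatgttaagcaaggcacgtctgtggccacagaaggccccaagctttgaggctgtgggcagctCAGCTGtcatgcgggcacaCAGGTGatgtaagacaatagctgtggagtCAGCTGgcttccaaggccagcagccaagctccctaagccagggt
Chrng: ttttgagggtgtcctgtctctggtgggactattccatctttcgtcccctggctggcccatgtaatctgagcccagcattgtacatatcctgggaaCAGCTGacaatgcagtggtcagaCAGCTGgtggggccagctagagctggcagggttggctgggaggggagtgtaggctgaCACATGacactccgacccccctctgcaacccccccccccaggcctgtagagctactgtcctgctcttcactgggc
Chrnb2: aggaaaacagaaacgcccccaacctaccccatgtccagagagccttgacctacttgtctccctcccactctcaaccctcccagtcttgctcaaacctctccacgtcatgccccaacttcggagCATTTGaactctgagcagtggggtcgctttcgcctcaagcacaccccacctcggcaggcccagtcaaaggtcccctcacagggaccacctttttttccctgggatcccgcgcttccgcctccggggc
CANNTG reads the same on both strands, and CAGCTG is 1 of its forms. The Chrna1 sequence held 3 E-boxes, which began 92, 73 and 44 bases before the start, and 2 of them were CAGCTG. The Chrng sequence also held 3, of which 2 were CAGCTG, and that of Chrnb2 held 1, a CATTTG 127 bases before the start. Of 32851 RefSeq promoter windows of the same length, 12.2% had at least 3 CANNTG and 1.26% had at least 2 CAGCTG. Promoters were listed for 8 of the 10 subunit genes. Among the others shown by count only, Chrnb1 had 3 E-boxes, Chrna3, Chrna7 and Chrnb4 had 2 each and Chrna4 had 0, and Chrna5, listed with 2 starts, had 1 and 2. CAGCTG did not follow the receptor type, with 0 in muscle-type Chrnb1 and 1 in neuronal Chrnb4. These matches describe letters and were not tested as binding sites.

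Values are log2 intensities summarised with RMA, the robust multi-array average. The background level was set by 1027 olfactory receptor genes, which are little used in brain, and the 90th percentile of their means, 5.44, served as the floor. Of the 10 subunit genes 7 had means above it, as had 15193 of all 19938 genes. A stricter floor left 6 of the 10 above it, and more lenient floors left all 10. Olfactory receptor genes were themselves dimmer in Dp1Yey (4.78 ± 0.011) than in control arrays (4.81 ± 0.024, SD, n = 5 each), a log2 difference of -0.037 (exact permutation p = 0.00794, two-sided, the smallest the design allows). Of the hippocampal markers, 10 of 10 for principal neurons and 8 of 8 for interneurons lay above the floor. So did 17 of 20 skeletal muscle markers, and passing the floor therefore does not identify the tissue. The trisomic segment read as labelled, with 59 of its 143 measured genes called higher in Dp1Yey.

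Across all genes limma called 159 at an adjusted p under 0.05, 0.797% of those tested, and 0 of the 10 subunit genes were among them. At an unadjusted p under 0.05, Chrna1 was the 1 subunit gene higher in Dp1Yey, where 8.75% of all genes were higher, and Chrnb1 and Chrnd were 2 lower, where 10.8% of all genes were lower. The rank statistic that the study used, rewritten here, called 3.46% of all genes and 1 of the 10 subunit genes, Chrna1. The median log2 difference of the 10 was 0.051, beside -0.015 over all genes.

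Chrna1 encodes the acetylcholine-binding subunit of the muscle receptor (chromosome 2, 73563281 to 73580338, GRCm38.p6). Its log2 values were 6.32, 6.21, 6.18, 6.18 and 6.49 in Dp1Yey replicates 1 to 5. In control replicates 1 to 5 they were 6.01, 5.91, 6.06, 6.02 and 6.04. Every Dp1Yey mouse lay above every control mouse, with Dp1Yey replicate 5 the highest, and all 10 arrays lay above the floor. Groups failed to overlap in this direction in 2.4% of all genes. Dp1Yey averaged 6.28 ± 0.14 and controls 6.01 ± 0.059 (SD, n = 5 each), a log2 difference of 0.27 (SE 0.059, 95% CI 0.14 to 0.40) or 1.2-fold (1.10 to 1.32). The difference did not pass the threshold across all genes (limma adjusted p = 0.0603, unadjusted p = 0.000706), while the exact permutation test of the gene alone gave p = 0.00794 (two-sided, n = 5 each). It passed after a further quantile normalisation of the arrays (0.32, adjusted p = 0.0386) and after centring each array on its median (0.31, adjusted p = 0.025). Centring also moved the median difference of all genes from -0.015 to 0.032, and 95.5% of its 308 calls were higher in Dp1Yey. The Chrna1 difference did not pass with each array's interquartile range as covariate (0.28, adjusted p = 0.349). Nor did it pass without control replicates 1 and 2 together (0.24, adjusted p = 0.177). It stood at 0.21 to 0.29 when each array was left out in turn and passed in 0 of those 10 fits (adjusted p 0.0585 to 0.148). The level was modest: the mean over the 10 arrays, 6.14, lay 0.70 above the floor, and 98.2% of olfactory receptor genes were at or below it. Passing the floor does not by itself show that a gene is used in hippocampus, since 17 of 20 skeletal muscle markers also passed it.

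The other muscle-type subunits of the list stood at the floor. Chrnb1, the beta 1 subunit (chromosome 11, 69784036 to 69795966), read 5.33, 5.35, 5.40, 5.44 and 5.40 in Dp1Yey and 5.51, 5.60, 5.45, 5.42 and 5.46 in control replicates 1 to 5. Chrnd, the delta subunit (chromosome 1, 87190597 to 87200070), read 5.26, 5.33, 5.36, 5.44 and 5.39 in Dp1Yey and 5.51, 5.63, 5.43, 5.47 and 5.44 in control replicates 1 to 5. In both genes the groups overlapped, 0 of 5 Dp1Yey arrays reached the floor, and 4 of 5 control arrays did so for Chrnb1 and 3 of 5 for Chrnd. The log2 difference was -0.10 for Chrnb1 (95% CI -0.19 to -0.014, limma adjusted p = 0.204) and -0.14 for Chrnd (-0.24 to -0.040, adjusted p = 0.149). Neither passed. Of the olfactory receptor genes, 89.8% had means at or below that of Chrnb1 and 89.6% at or below that of Chrnd.

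**Figure D1:**
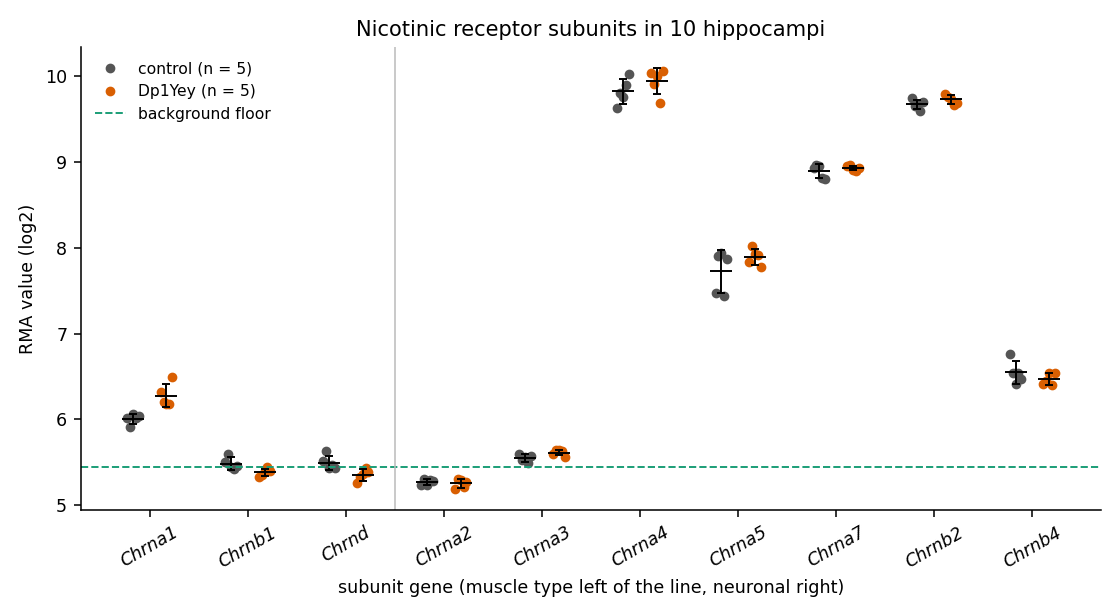
RMA log2 values (y axis) of the 10 subunit genes (x axis), muscle type left of the line and neuronal type right of it, with 1 point a mouse (5 control, 5 Dp1Yey) and bars for mean ± SD; the dashed line is the background floor at 5.44. Chrna1 is the gene whose groups do not overlap, at 6.28 in Dp1Yey and 6.01 in control mice, while Chrnb1, Chrnd and Chrna2 lie at or under the floor.

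The muscle receptor has a pair of further subunits that are not on the list. Chrng, the embryonic gamma subunit (chromosome 1, 87205811 to 87211835), read 5.84, 5.70, 5.80, 5.73 and 5.80 in Dp1Yey and 5.94, 6.00, 6.00, 6.00 and 5.89 in control replicates 1 to 5. Every Dp1Yey mouse lay below every control mouse, as in 2.46% of all genes. The log2 difference was -0.19 (95% CI -0.27 to -0.11, limma adjusted p = 0.039), opposite to that of Chrna1, and it passed the threshold. The call was lost without each array in turn except control replicate 5 (adjusted p 0.0533 to 0.102 in the 9 fits), after quantile normalisation (0.0927, log2 difference -0.14) and after median centring (0.0652, -0.15). Chrne, the adult epsilon subunit, differed by -0.068 (95% CI -0.15 to 0.016, adjusted p = 0.338).

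Of the neuronal subunits, Chrna4 and Chrnb2 carry the main brain receptor, and both lay far above the floor. Chrna4 (chromosome 2, 181022311 to 181043579) read 9.69 in Dp1Yey replicate 4 and 9.90 to 10.05 in the other 4 Dp1Yey mice, and 9.62, 9.81, 9.76, 9.89 and 10.02 in control replicates 1 to 5. The groups overlapped widely, and the log2 difference was 0.12 (95% CI -0.060 to 0.29, limma adjusted p = 0.428). Chrnb2 (chromosome 3, 89753448 to 89764632) read 9.79, 9.76, 9.73, 9.66 and 9.69 in Dp1Yey and 9.74, 9.64, 9.66, 9.59 and 9.70 in control replicates 1 to 5. These also overlapped, with a log2 difference of 0.060 (-0.022 to 0.14, adjusted p = 0.382).

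Chrna7, whose product forms the homomeric receptor, was even across the arrays, at 8.90 to 8.96 in Dp1Yey and 8.80 to 8.96 in control mice. Its log2 difference was 0.041 (95% CI -0.046 to 0.13, limma adjusted p = 0.573). The interval left room for a difference of at most 0.13 in size.

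Chrna5, the accessory subunit, lies in a cluster with Chrna3 and Chrnb4 on chromosome 9. It read 7.83, 8.02, 7.93, 7.91 and 7.78 in Dp1Yey and 7.47, 7.90, 7.94, 7.44 and 7.87 in control replicates 1 to 5. Control replicates 1 and 4 stood below all other mice, and the remaining 3 controls fell within the Dp1Yey range. The log2 difference, 0.17, was the next in size above 0 after that of Chrna1, with the widest interval of the 10 (95% CI -0.046 to 0.39, limma adjusted p = 0.349). With the mean of 4 choroid plexus markers of each array as a covariate, a fit added after seeing the data, the Chrna5 difference was -0.014 and that of Chrna1 was 0.30 (adjusted p = 0.142). Markers of the choroid plexus, the epithelium that makes cerebrospinal fluid, were measured on each array. These markers, Ttr, Kl, Folr1 and Otx2, were all 4 above the floor, and their mean ran from 7.56 to 8.45 in Dp1Yey and from 7.91 to 9.61 in control mice (exact permutation p = 0.0873, two-sided, n = 5 each). Their part in the Chrna5 and Chrna1 differences was not tested beyond that fit. Ttr, the thyroid hormone carrier that marks this tissue, differed most, by -1.57 (adjusted p = 0.244).

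The other cluster genes were lower on the scale. Chrna3 (55010117 to 55026562) lay at 5.57 to 5.64 in Dp1Yey and 5.49 to 5.60 in control mice, 0.14 above the floor in the mean, and differed by 0.062 (95% CI -0.0086 to 0.13, limma adjusted p = 0.307). Chrnb4 (55028154 to 55048953) lay at 6.40 to 6.55 in Dp1Yey and 6.41 to 6.76 in control mice and differed by -0.078 (-0.21 to 0.053, adjusted p = 0.474). The groups overlapped in both. The annotations of Chrna5 (54980827 to 55011420) and Chrna3 overlap, and where the probes of these sets lie was not analysed here. Chrna2, a subunit of a small class of interneurons, stood under the floor in all 10 arrays, at 5.19 to 5.31 in Dp1Yey and 5.23 to 5.30 in control mice (chromosome 14, 66133236 to 66152948). Its log2 difference was -0.015 (-0.089 to 0.059, adjusted p = 0.827) and became 0.026 after quantile normalisation and 0.032 after median centring.

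**Figure D2:**
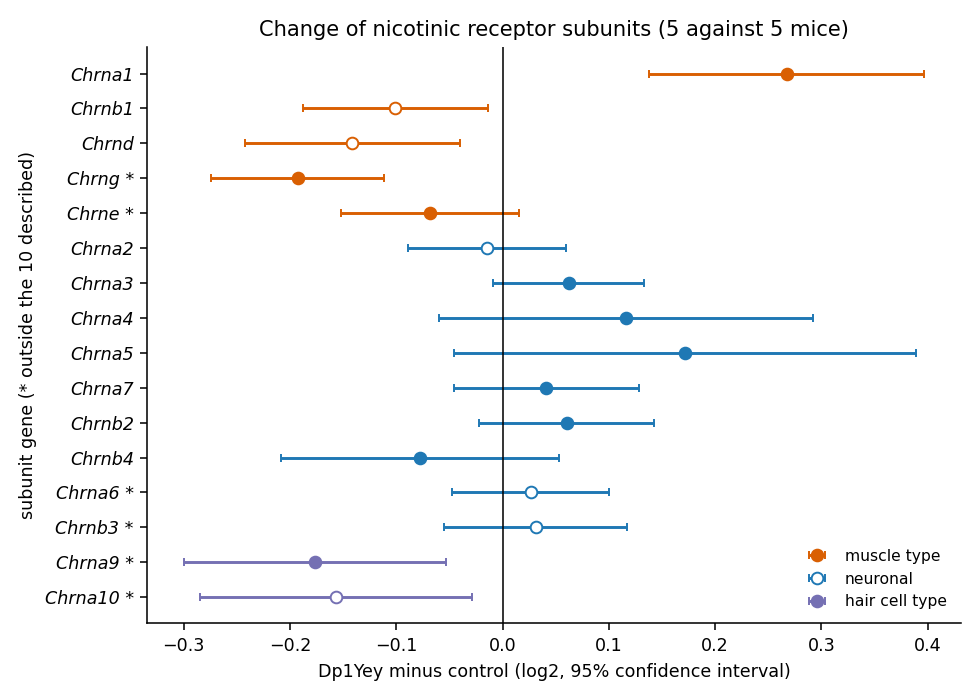
Log2 difference between Dp1Yey and control mice (x axis, points) with 95% confidence intervals (bars) for the 10 subunit genes and, marked by an asterisk, 6 further ones (y axis), coloured by receptor type, filled where the mean lay above the floor and open where it did not. Chrna1 at 0.27 is the 1 gene of the 16 whose interval lies wholly above 0, and those of Chrnb1, Chrnd, Chrng, Chrna9 and Chrna10 lie wholly below 0.

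Whether Chrna1 stood apart from the other subunits was tested directly. The paper had listed Chrna1 as misregulated in Dp1Yey and other models. It also reported overexpression of Chrna1 mRNA by qRT-PCR, a separate assay that was not examined here. The members were chosen with earlier results of these data known. The tests used the same arrays, so their p-values are not independent of that choice. For each mouse the log2 value of each other subunit was subtracted from that of Chrna1, and the groups were compared in 9 comparisons with a two-sided exact permutation test, unadjusted (n = 5 each). Its muscle-type partners Chrnb1 and Chrnd, and Chrna2, had means under the floor, where a difference may not register. The excess of Chrna1 over them, 0.37, 0.41 and 0.28, therefore does not show that Chrna1 stands apart from them. Among subunits above the floor, the difference of Chrna1 exceeded that of Chrna3 by 0.20, Chrna7 by 0.23 and Chrnb2 by 0.21 (exact permutation p = 0.00794 each, the smallest the design allows) and that of Chrnb4 by 0.34 (exact p = 0.0159). Control replicates 1 and 2 were also left out together, a choice made from earlier results of these data. The exact permutation p was then 0.125 for Chrna3, 0.0893 for Chrna7, 0.107 for Chrnb2 and 0.0714 for Chrnb4. Those tests had fewer assignments than the 252 with all arrays, and so less power.

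Against Chrna4 and Chrna5 no such separation was shown. The difference of Chrna1 exceeded that of Chrna4 by 0.15 (95% CI -0.053 to 0.36, exact permutation p = 0.135, n = 5 each) and that of Chrna5 by 0.095 (-0.25 to 0.45, exact permutation p = 0.532). Without control replicate 1 the comparison with Chrna4 stood at 0.20 (exact p = 0.0476). These intervals include a larger excess of Chrna1 as well as none, so Chrna1 was not set apart from these 2. Of the other 7 subunits, 4 lay above the floor (Chrna3, Chrna7, Chrnb2 and Chrnb4), and Chrna1 was set apart from these with all arrays, by unadjusted tests. Chrna3 lay only 0.14 above the floor, so the limit stated for subunits under the floor may hold for Chrna3 too.

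**Figure D3:**
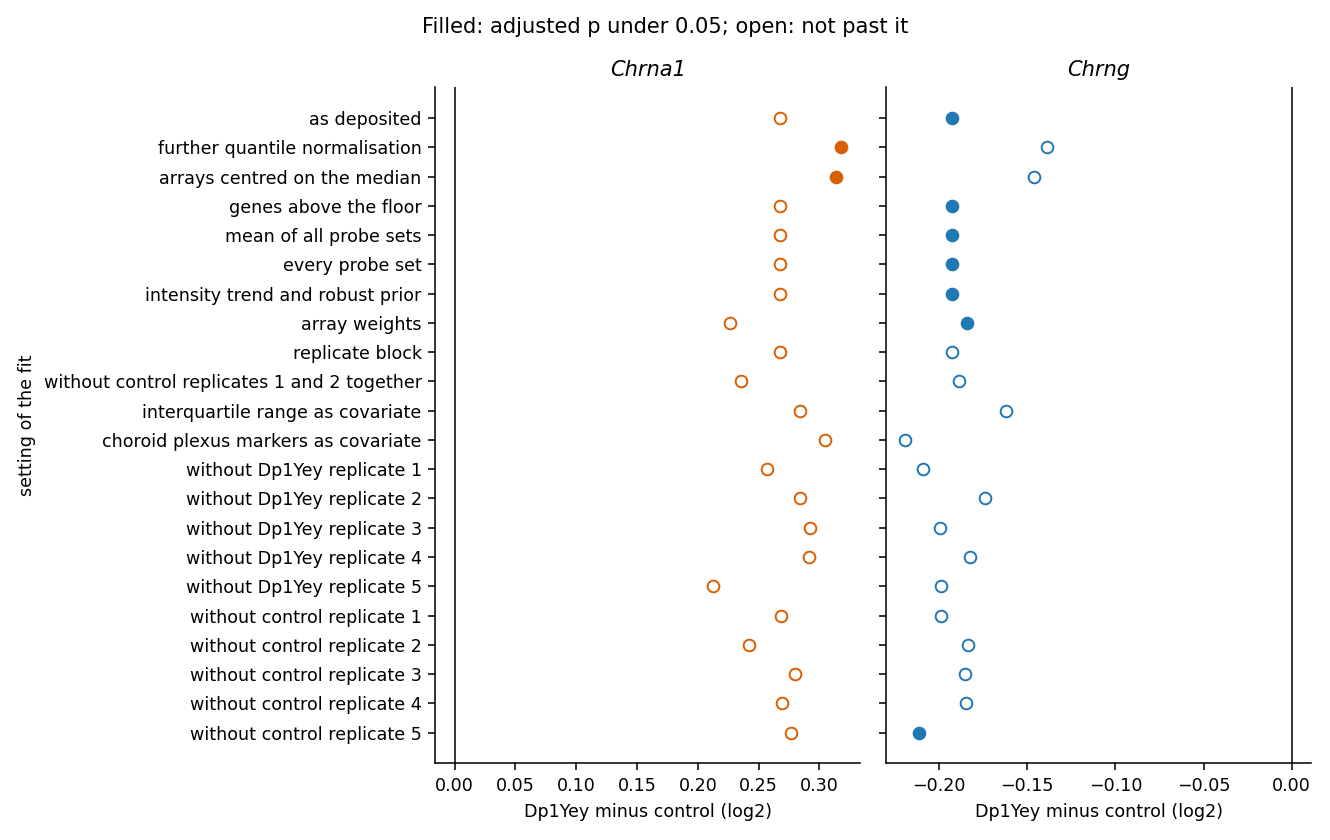
Log2 difference between Dp1Yey and control mice (x axes) of Chrna1 (left) and Chrng (right) under each setting of the fit (y axis), filled where the limma adjusted p was under 0.05. Chrna1 stays between 0.21 and 0.32 and passes in 2 of the settings other than the deposited one, and Chrng stays between -0.22 and -0.14 and passes in 6 of them.

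The rest of the cholinergic system was described from lists of 35 further genes. Of these 0 were called higher and 1, Chrng, was called lower. Groups did not overlap in 2 genes higher in Dp1Yey, Ric3 and Musk, and in 3 lower, Chrng, Chrna9 and Chat, beside 2.4% and 2.46% of all genes in these directions.

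Among the 6 nicotinic subunits outside the list the median log2 difference was -0.11. Chrna9 and Chrna10 form the receptor of cochlear hair cells. Chrna9 read 5.62, 5.60, 5.54, 5.43 and 5.66 in Dp1Yey and 5.92, 5.77, 5.67, 5.71 and 5.66 in control replicates 1 to 5, a difference of -0.18 (limma adjusted p = 0.144). Every Dp1Yey mouse lay below every control mouse, though the closest pair differed by less than the rounding. Chrna10, under the floor, differed by -0.16 (adjusted p = 0.189). Chrna6 and Chrnb3, which are subunits of dopaminergic neurons, lay under the floor and differed by 0.027 and 0.031 (adjusted p = 0.673 and 0.670). Of the 4745 genes at or below the floor, 443 were lower in Dp1Yey and 62 higher (limma unadjusted p under 0.05). Among all 19938 genes 2152 (10.8%) were lower and 1744 (8.75%) higher. The part of this imbalance near the floor in these dim subunits was not tested.

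The G protein-coupled muscarinic receptors, which carry most slow cholinergic signalling in hippocampus, were all 5 above the floor and 0 of 5 were called. Their log2 differences ran from -0.13 for Chrm2, the autoreceptor of cholinergic terminals (limma adjusted p = 0.298), to 0.056 for Chrm5 (0.811). Chrm1, Chrm3 and Chrm4 differed by -0.040, 0.0091 and -0.074 (0.584, 0.920 and 0.578).

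Of the 8 genes of acetylcholine turnover 0 were called. Ache, the esterase that ends the signal, read 8.79, 8.80, 8.82, 8.66 and 8.79 in Dp1Yey and 8.74, 8.62, 8.56, 8.54 and 8.64 in control replicates 1 to 5. That is a difference of 0.15 (95% CI 0.054 to 0.25, limma adjusted p = 0.122), with groups that overlapped, and it was called after median centring. Chat, the synthesis enzyme, whose cell bodies lie mostly outside the hippocampus, stood at the floor and differed by -0.15 (adjusted p = 0.182). The vesicular transporter Slc18a3 differed by -0.16 (0.211), the choline transporter Slc5a7 by -0.057 (0.441) and the vesicle protein Slc10a4 by 0.068 (0.796). Bche, the other esterase, differed by 0.12 (0.522), and the esterase anchors Colq and Prima1 by -0.042 (0.671) and -0.11 (0.394).

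Of the 10 genes of receptor assembly and modulation 0 were called, while an unadjusted p under 0.05 was reached by 4 on the higher side and 1 on the lower, beside 8.75% and 10.8% of all genes. Ric3, a chaperone of alpha 7 receptors, read 8.52, 8.53, 8.55, 8.47 and 8.49 in Dp1Yey and 8.28, 8.38, 8.43, 8.42 and 8.39 in control replicates 1 to 5. The groups did not overlap, and the log2 difference was 0.13 (95% CI 0.055 to 0.21, limma adjusted p = 0.0963). Lynx1 and Lypd6, membrane-anchored Ly6 proteins that modulate nicotinic receptors, each differed by 0.14 (0.137 and 0.155), and Lypd6b by 0.10 (0.234). Ly6h, of the same family, was the 1 on the lower side, at -0.14 (0.205). Tmem35a, a further alpha 7 chaperone, differed by -0.12 (0.284). The remaining family members Ly6e, Ly6g6e, Lypd1 and Psca lay between -0.094 and 0.081.

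Endplate organisers hold muscle receptors in place at the synapse, and 0 of 6 were called. Musk, the receptor kinase that agrin activates through Lrp4, read 6.01, 5.98, 5.97, 5.99 and 6.05 in Dp1Yey and 5.94, 5.85, 5.83, 5.82 and 5.71 in control replicates 1 to 5. Every Dp1Yey mouse lay above every control mouse, and the log2 difference was 0.17 (95% CI 0.079 to 0.26, limma adjusted p = 0.078). It was called after quantile normalisation, median centring and array weights, without control replicate 1, and without control replicates 1 and 2 together. Rapsn, which clusters the receptor under the membrane, stood at the floor and differed by -0.15 (0.231). Agrn, Lrp4, Dok7 and Utrn differed by -0.059, -0.016, -0.078 and -0.0012 (0.494, 0.864, 0.434 and 0.990).

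**Figure D4:**
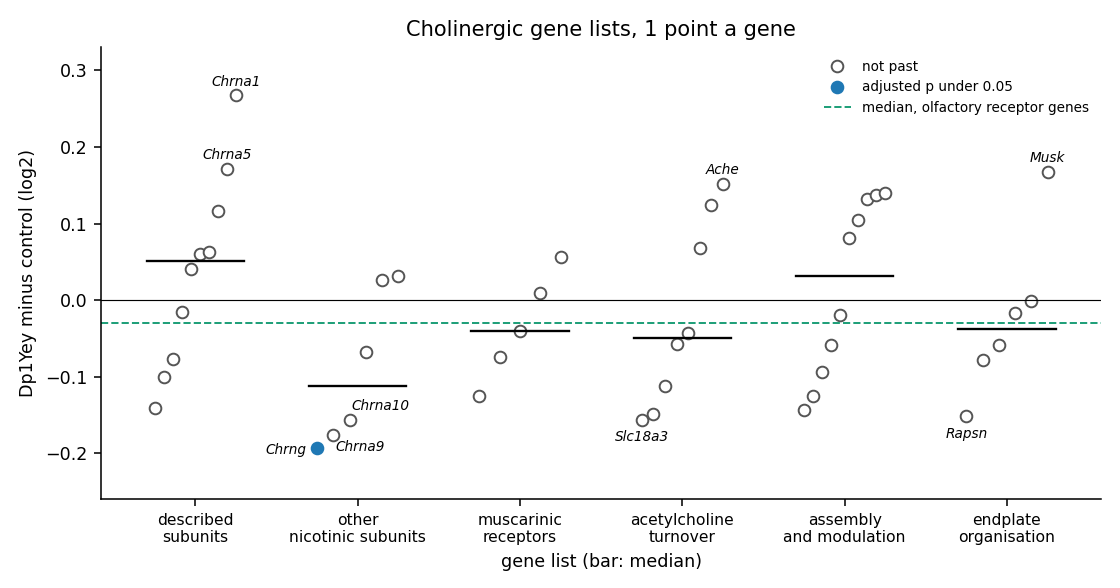
Log2 difference between Dp1Yey and control mice (y axis) of each gene (points) in the 6 cholinergic lists (x axis), with bars for list medians, genes beyond 0.15 in size named and the dashed line at the median of olfactory receptor genes. Chrng, at -0.19, is the 1 filled point, past an adjusted p of 0.05, and Chrna1 at 0.27 is the highest.

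Markers of the tissues that use these subunits were read beside them. Of 20 skeletal muscle markers 17 lay above the floor and 0 were called. Their mean per array ran from 5.99 to 6.04 in Dp1Yey and from 6.02 to 6.14 in control mice. Only 5 of the 20 had higher means in Dp1Yey, with a list median of -0.044. At an unadjusted p under 0.05, 3 were lower and 0 higher, beside 10.8% and 8.75% of all genes. In 1 of them, Myog, the groups did not overlap, as in 2.46% of all genes in that direction. The myogenic factors Myog and Myod1, which act through E-boxes, differed by -0.17 (limma adjusted p = 0.0698) and -0.15 (0.111). Tnnt3 differed by -0.13 (0.202) and the skeletal actin Acta1 by 0.0024 (0.985). Of 6 measured markers of cholinergic neurons, 0 were called and 2 were lower at an unadjusted p under 0.05, beside 10.8% of all genes. All 6 had lower means in Dp1Yey than in control mice, with a list median of -0.14 beside -0.015 over all genes. Of 4 markers of the medial habenula, where Chrna3 and Chrnb4 are abundant, 1 was called higher: the tachykinin gene Tac2, by 0.36 (adjusted p = 0.0197), while Pou4f1 and Gpr151 lay under the floor and Nwd2 differed by -0.051 (0.657). Of 7 thalamus markers 0 were called.

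The genes around Chrna1 were examined for a shared shift. Distances were taken between the lower annotated coordinates of the genes. For Chrna1, on the minus strand, that is the end opposite the start used for the promoter. Within 500 kb by this measure 10 further genes were measured, and 0 were called. At an unadjusted p under 0.05, Atf2 was higher by 0.12 (limma adjusted p = 0.220) and Gpr155 lower by -0.11 (0.227). That is 1 of 10 in each direction, beside 8.75% of all genes higher and 10.8% lower. Chn1, 47.4 kb from Chrna1 by this measure, differed by -0.019, and Wipf1 on the other side by 0.14 with a wide interval (95% CI -0.066 to 0.34). Within 500 kb of Chrna5, 0 of 17 genes were called, Chrna3 and Chrnb4 among them.

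**Figure D5:**
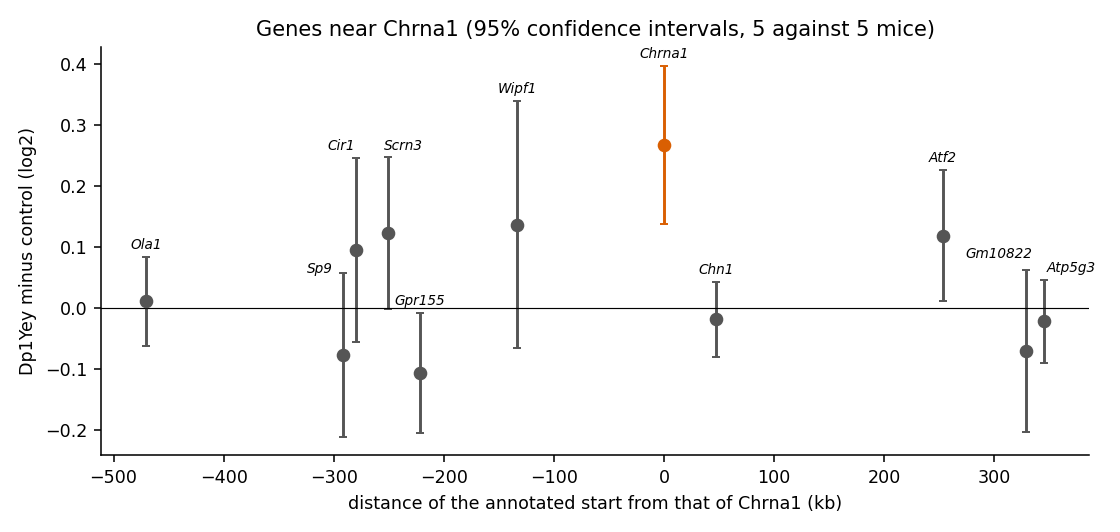
Log2 difference between Dp1Yey and control mice (y axis, points) with 95% confidence intervals (bars) for Chrna1 and the 10 measured genes within 500 kb. The x axis is the distance of the annotated starts in kb, taken as the lower coordinate of each gene. Chrna1 lies at 0.27, and its neighbours lie between -0.11 and 0.14.

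The genes above the floor whose values were most like those of Chrna1 from mouse to mouse, after the group means were subtracted, were D3Ertd751e, Ube2j1, Rab25, Ap1m2 and Cenpw (Pearson r = 0.957, 0.929, 0.905, 0.902 and 0.889 over 10 arrays, picked as the highest of all genes). The other 9 subunits had r from -0.40 for Chrnb1 to 0.44 for Chrna4 by the same measure. All points share their arrays. D3Ertd751e also did not overlap between the groups, with 7.00 ± 0.22 for Dp1Yey against 6.65 ± 0.13 for controls (SD, n = 5 each, limma adjusted p = 0.106), while Rab25 differed by 0.0042 (0.950).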

How the data were processed

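Hippocampal RNA of 5 Dp1Yey mice and 5 control littermates was hybridised to Affymetrix Mouse Gene 1.0 ST arrays, 1 a mouse. The authors deposited log2 values made by RMA (background correction, quantile normalisation, 1 value a probe set). RMA, limma and mm10 appear in the submitters' processing notes. Whether arrays of other models were normalised with these is not given in the sources. RMA compresses differences near background. Arrays give no read depth, and their number limits the precision.

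Of 35556 probe sets, 21789 had 1 gene symbol in the platform annotation, 1621 several and 12146 were not listed. Each of 19938 genes was represented by its probe set of highest mean, and 19852 had RefSeq coordinates. Groups were compared with limma 3.58.1 in R 4.3.3 (lmFit, eBayes, two-sided), Benjamini-Hochberg adjusted over all genes, called under 0.05. Exact permutation tests used all assignments of mice to groups, 252 with all arrays and fewer without some. Alternatives covered normalisation, floor, probe sets, prior, array weights, the replicate block, a rank statistic, covariates and left-out arrays. The code was tested on simulated data.

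The named genes were all subunits, the cholinergic lists, the markers called, some neighbours of Chrna1 and the 5 genes most like it. Of the other markers a few were named, not always those of smallest p in their list. The members and lists were chosen with earlier results of these data known, so no p was adjusted over a list.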

Additional observations from a re-analysis of the deposited data

How the results depend on the processing

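The Chrna1 difference stayed above 0 in all 22 alternatives (0.21 to 0.32), and no alternative reversed Chrna3, Chrna4, Chrnb1, Chrnb2 or Chrnd. Chrna1 was the 1 subunit called, rather than 0, after quantile normalisation (0.32), after median centring (0.31) and by the rank statistic (0.27). Without each array in turn it lay at 0.21 to 0.29, and 0 subunits were called. With the replicate block it was 0.27 (adjusted p = 0.0938). Deviations of same-numbered mice correlated at -0.327 to 0.217. These values alone do not settle whether equal numbers mark paired mice. The comparisons of Chrna1 with each other subunit were not run with the block, since an exact test over 5 pairs cannot reach the threshold.

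In 4 subunits the difference changed sign. Chrna2 became 0.026 after quantile normalisation, 0.032 after median centring, 0.0074 with each array's interquartile range as covariate, and ran from -0.028 to 0.0012 without 1 array. Chrnb4 became 0.014 with the interquartile range, and Chrna5 -0.014 and Chrna7 -0.0067 with the choroid plexus covariate, which was added after seeing the data.

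Genes called across the array, 159, numbered 308 after median centring, 94 with the replicate block, 46 with the interquartile range, 689 by the rank statistic, 66 with the choroid plexus covariate and 70 to 232 without 1 array. Cholinergic genes called, 1, numbered 2 after median centring and with array weights, 0 with the replicate block, the interquartile range and the rank statistic, and 0 to 1 without 1 array. Without control replicates 1 and 2 the excess of Chrna1 was 0.17 over Chrna3, 0.16 over Chrna7, 0.16 over Chrnb2 and 0.24 over Chrnb4, no longer past the threshold. Over Chrna4 it was 0.11 to 0.20 without 1 array.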

Other observations

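Markers of further cell types were also measured. Of 10 hippocampal principal neuron markers 0 were called and 3 were higher at an unadjusted p under 0.05, beside 8.75% of all genes. Wfs1, a marker of CA1 pyramidal cells, read 10.60, 10.73, 10.69, 10.37 and 10.60 in Dp1Yey and 10.35, 9.91, 10.18, 10.10 and 10.36 in control replicates 1 to 5. The groups did not overlap, with a log2 difference of 0.42 (limma adjusted p = 0.0533). All 8 interneuron markers had means no lower in Dp1Yey than in control mice, and 0 were called. Of them 3 were higher at an unadjusted p under 0.05, beside 8.75% of all genes. The list median was 0.12 beside -0.015 over all genes. Slco1a4, a transporter of the endothelium at the blood-brain barrier, differed by 0.34 (adjusted p = 0.0586) without overlap, while the junction gene Cldn5 differed by 0.048 (0.898). Of the 4 choroid plexus markers, 0 were called and 4 were lower at an unadjusted p under 0.05, beside 10.8% of all genes. In the lists of microglia (5), meningeal fibroblasts (4), oligodendrocytes (3 measured) and astrocytes (4) 0 genes were called, with list medians of 0.075, 0.017, 0.087 and 0.046.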
